A study of Mus musculus with 10 samples.

Results

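The 10 muscle ubiquitin ligase genes described here were followed in C2C12 myotubes that received the alpha-arrestin Arrdc2. They were chosen by name, as the rows whose gene identifier carries the mouse symbol Fbxo32, Trim63, Fbxo30, Fbxo31, Fbxo21, Trim32, Trim54, Trim55, Mul1 or Cblb. All 10 were found among the 57010 genes of the deposited table, and all 10 were abundant enough to be tested. C2C12 is a mouse myoblast line whose cells stop dividing and fuse into myotubes when serum is withdrawn, and Arrdc2 belongs to a family of adaptors that bring membrane proteins to ubiquitin ligases. All cultures were wild-type C2C12 (the labels give the cell type as Myoblast), grown on collagen, differentiated for 3 days in insulin-containing medium, exposed to adenovirus and harvested 48 h later. The virus carried both Arrdc2 and Gfp in 5 libraries (the Arrdc2 group) and only Gfp in the other 5 (the GFP group), so both groups carried virus and Gfp, and no culture without virus was analysed. The promoter that drove the delivered genes was not given in the sources used here. The labels do not say whether the 5 samples of a group were separate cultures, so all p-values measure the spread among these libraries only, and that spread may be technical.

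A ubiquitin ligase chooses the protein to which ubiquitin is attached, and chains of ubiquitin send that protein to the proteasome. Atrogin-1 (Fbxo32) and MuRF1 (Trim63) are the muscle ligases best known from wasting: both transcripts rise in mouse and rat muscle during fasting, denervation and disuse, and mice that lack either keep more muscle after denervation. FOXO transcription factors, held in check by insulin and Akt signalling, switch on both genes, and the glucocorticoid receptor acts on Trim63. F-box members work as the interchangeable substrate arm of a cullin complex (the SCF complex), whereas the TRIM members, Mul1 and Cblb carry a RING domain and bind the ubiquitin-conjugating enzyme themselves.

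Arrdc2 delivery did not move these ligases together. Fbxo32 rose, whereas Trim63, Fbxo30, Trim54 and Mul1 fell, with folds between 0.867 and 1.16. Fbxo31, Fbxo21, Trim32, Trim55 and Cblb did not pass the test. Of the 10 ligases, 1 was therefore higher and 4 were lower at an adjusted p below 0.05, where 14.5% of all 15223 tested genes were called higher and 15.8% lower (30.3% in either direction). The share of ligases called higher was near that of all genes, and the share called lower was above it. Neither share was tested, the ligases were chosen with earlier results of these data known, and the number called lower ran from 3 to 5 in alternative settings. The median difference between the groups was -0.06 on the log2 scale over the 10 ligases and 0.0027 over all tested genes. Calls come from limma on the deposited log2 values (regularized log values, rlog) with Benjamini-Hochberg adjustment over all tested genes. These values are shrunk towards each gene's mean, so a log2 difference on this scale understates the change. Normalised reads (reads divided by a size factor per library) and folds with 95% intervals come from read counts recovered from the same values.

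Promoters are shown for the 4 ligases that fell, so that motifs they might share can be looked for. The sequences are RefSeq's for GRCm38.p6, 250 bases before to 50 bases after the annotated start, on the + strand, and 8 of the 10 ligases were matched in that table (all but Fbxo32 and Trim55). Capitals mark matches, on either strand, to 5 motifs: the forkhead site bound by FOXO factors, GTAAACA; the palindromic glucocorticoid receptor site, GAACA and TGTTC with 3 bases between; the E-box of myogenic factors, CAGCTG; the cAMP response half-site, TGACGT; and the TATA box, TATAAA. The regions are chr4:134314870-134315169 for Trim63, chr5:31116362-31116661 for Trim54, chr4:138434422-138434721 for Mul1 and chr10:11281337-11281636 for Fbxo30.
Trim63: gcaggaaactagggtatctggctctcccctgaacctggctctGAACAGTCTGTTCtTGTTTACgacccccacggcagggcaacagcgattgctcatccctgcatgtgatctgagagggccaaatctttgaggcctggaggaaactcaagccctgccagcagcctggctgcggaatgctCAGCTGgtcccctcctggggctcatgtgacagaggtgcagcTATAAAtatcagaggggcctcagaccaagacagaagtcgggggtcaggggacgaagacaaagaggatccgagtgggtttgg
Trim54: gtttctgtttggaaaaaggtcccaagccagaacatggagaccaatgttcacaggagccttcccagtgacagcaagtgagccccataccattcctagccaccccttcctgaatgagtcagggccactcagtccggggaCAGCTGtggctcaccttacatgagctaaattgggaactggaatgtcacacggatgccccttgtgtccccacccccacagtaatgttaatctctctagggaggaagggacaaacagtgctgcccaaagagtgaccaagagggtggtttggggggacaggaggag
Mul1: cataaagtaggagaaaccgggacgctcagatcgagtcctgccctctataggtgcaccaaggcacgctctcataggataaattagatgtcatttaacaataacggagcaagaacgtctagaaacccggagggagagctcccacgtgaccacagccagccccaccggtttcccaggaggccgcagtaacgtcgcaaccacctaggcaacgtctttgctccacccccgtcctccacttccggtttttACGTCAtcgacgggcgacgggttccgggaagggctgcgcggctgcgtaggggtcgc
Fbxo30: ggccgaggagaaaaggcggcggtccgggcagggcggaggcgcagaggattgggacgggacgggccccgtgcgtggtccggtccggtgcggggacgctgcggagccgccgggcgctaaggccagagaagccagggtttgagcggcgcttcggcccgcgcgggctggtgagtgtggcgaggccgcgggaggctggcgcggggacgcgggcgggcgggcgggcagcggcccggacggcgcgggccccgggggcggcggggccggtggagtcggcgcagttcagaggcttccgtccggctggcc
No motif was shared by all 4. Trim63 held 4 of the 5 motifs: the glucocorticoid receptor site began 208 bases before the start, the forkhead site 194 bases before it, the E-box 72 and the TATA box 31 bases before it. No matches overlapped. The glucocorticoid site occurred in 0.058% of 32851 promoters of the same length, the forkhead site in 3.65%, the E-box in 16.3% and the TATA box in 13.6%. Trim54 held an E-box 113 bases before its start, as did Trim32 at 107 bases, and Mul1 held a cAMP half-site, present in 7.51% of promoters, 6 bases before its start. Fbxo30, Fbxo31, Fbxo21 and Cblb held none of the 5 in this window. A match is a run of letters and not a measured binding site.

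The F-box ligases come first. Fbxo32 encodes atrogin-1, which recognises MyoD and the translation factor eIF3f in mouse muscle cells. GFP libraries 3 to 7 held 1559, 1419, 1338, 1527 and 1574 normalised reads of it, against 1883, 1903, 1540.2, 1528 and 1748 for Arrdc2 libraries 6, 7, 9, 10 and 11. Libraries 6, 7 and 11 stood above every GFP library, while libraries 9 and 10 lay inside the GFP range, so the groups overlapped. The mean went from 1484 ± 101 to 1720.4 ± 180.1 (SD, n = 5 each), a 1.16-fold rise (95% interval 1.05 to 1.27). On the deposited scale Fbxo32 rose by 0.15 (SE 0.05, limma adjusted p = 0.0172). This call ended when either of 2 libraries was left out: the limma adjusted p was 0.0504 with GFP library 5 removed and 0.0540 in the fit that lacked Arrdc2 library 7. The 2 Arrdc2 libraries inside the GFP range, 9 and 10, also had the highest mean log2 level of undifferentiated myoblast and cycling markers, 10.08 and 10.09 against 9.80 to 9.95 in the other 8 libraries; the part of this in the Fbxo32 values was not tested.

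Fbxo30 encodes the ligase known as MUSA1, whose transcript in mouse muscle is restrained by BMP signalling and rises after denervation. Its normalised reads were 1648, 1659, 1480.4, 1634 and 1621 in the GFP libraries, and 1448, 1428, 1473, 1359 and 1459.6 in the Arrdc2 libraries. Every Arrdc2 library was below every GFP library, narrowly so for GFP library 5 against Arrdc2 library 9, and the other 4 GFP libraries were close together. Fbxo30 fell to 0.892 of its GFP level (95% interval 0.839 to 0.949), from 1609 ± 73.1 to 1433 ± 44.8, a log2 difference of -0.12 (SE 0.03, limma adjusted p = 0.00590).

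The other F-box ligases leaned upwards without passing the test. Fbxo31, the ligase of a cell cycle checkpoint that targets cyclin D1, lay between 517 and 625 normalised reads in GFP and between 564 and 686 in Arrdc2, with 4 of the 5 Arrdc2 libraries inside the GFP range. Its fold was 1.08 (95% interval 0.984 to 1.18, limma adjusted p = 0.190). Fbxo21, known in mouse muscle as SMART and reported as a FOXO-dependent ligase of atrophy, lay between 452 and 532 reads in GFP and between 508 and 558 in Arrdc2. Its fold was 1.10 (95% interval 1.01 to 1.19), with limma adjusted p = 0.0818 on the deposited scale. GFP library 5 was the only GFP library above the lowest Arrdc2 library for Fbxo21, and without it the limma adjusted p was 0.0288.

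**Figure D1:**
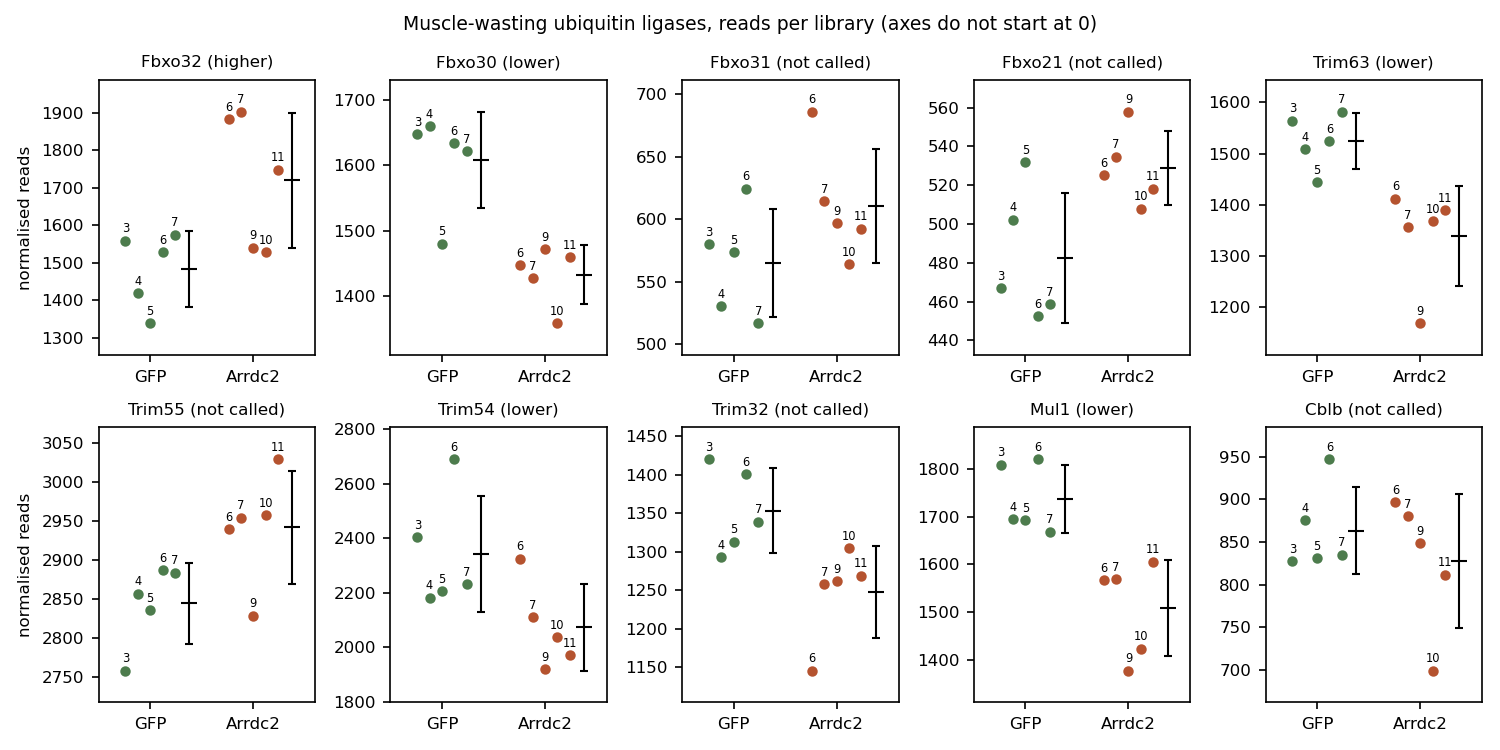
Normalised reads (vertical axes, which do not start at 0) of the 10 ligases in each library; points carry the library number of the deposited column, and bars give the mean and SD of 5 libraries. Trim63, Fbxo30 and Mul1 show no overlap between the groups, Fbxo32 is raised in 3 of 5 Arrdc2 libraries, and the other panels overlap.

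The MuRF proteins are close relatives that sit on the sarcomere and on microtubules. Trim63 and Trim54 were called lower, and Trim55 was not called. Trim63 encodes MuRF1, which marks myosin and other thick filament proteins for degradation in mouse muscle. It had 1564, 1508, 1444, 1524 and 1582 normalised reads in the GFP libraries, and 1412, 1357, 1168, 1369 and 1389 in the Arrdc2 libraries. All Arrdc2 libraries lay below all GFP libraries, with library 9 well under the other 4. Trim63 fell from 1525 ± 53.8 to 1339 ± 97.7 reads, 0.877 of its GFP level (95% interval 0.816 to 0.944), a log2 difference of -0.13 (SE 0.04, limma adjusted p = 0.00718).

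Trim54 encodes MuRF3, which binds and stabilises microtubules. Its reads were 2403, 2182, 2206, 2692 and 2232 in the GFP libraries, and 2325, 2111, 1919, 2038 and 1971 in the Arrdc2 libraries. Arrdc2 library 6 lay inside the GFP range, GFP library 6 was the highest of all, and the other 4 Arrdc2 libraries were below every GFP library. Trim54 fell to 0.886 of its GFP level (95% interval 0.813 to 0.965), from 2343 ± 213 to 2073 ± 159 reads, a log2 difference of -0.13 (SE 0.04, limma adjusted p = 0.0298). The call was lost in 8 of 20 alternative settings, with the limma adjusted p at 0.0685 without GFP library 3, 0.0943 without GFP library 6, 0.0837 without Arrdc2 library 9 and 0.0719 without Arrdc2 library 11. An antisense transcript, Gm15469, overlaps 26.6% of the exon bases of Trim54 in the GENCODE vM21 annotation; it was itself given 0 to 3.81 normalised reads per library, and no source used here gives the strand setting of the counting.

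Trim55 encodes MuRF2, which shuttles between the sarcomere and the nucleus. It lay between 2758 and 2887 normalised reads in GFP and between 2829 and 3029 in Arrdc2. Arrdc2 library 9 lay within the GFP range and the other 4 lay just above it. The fold was 1.03 (95% interval 0.983 to 1.09, limma adjusted p = 0.318). Trim55 was also the steadiest ligase, with a coefficient of variation (SD over mean) of 1.84% among GFP libraries and 2.45% among Arrdc2 libraries, against 3.13% to 10.5% for the other 9 ligases in either group. It also had the most normalised reads of the ligases, and the part of counting noise in this ranking was not tested. In the same annotation the transcripts of Trim63 and Trim55 shared no stretch of 50 bases with any other gene, and those of Trim54 shared 19.1% of such stretches, all with Gm15469. Of the F-box ligases, Fbxo32 shared 2.57% of such stretches with other genes. An antisense transcript, Gm15943, overlapped 2.67% of the exon bases of Fbxo32 and was itself given 0 to 3.51 normalised reads per library.

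The remaining RING ligases are less tied to wasting alone. Mul1 spans the outer mitochondrial membrane, is induced with FOXO activity in mouse muscle and targets the fusion protein mitofusin 2. Its normalised reads were 1809, 1695, 1692, 1821 and 1668 in the GFP libraries, and 1567, 1568, 1377, 1423 and 1606 in the Arrdc2 libraries. No Arrdc2 library reached the lowest GFP library, and libraries 9 and 10 were the lowest of all. Mul1 fell to 0.867 of its GFP level (95% interval 0.808 to 0.930), from 1737 ± 72.1 to 1508 ± 101 reads, a log2 difference of -0.15 (SE 0.03, limma adjusted p = 0.00313).

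Trim32, a TRIM-NHL ligase that acts on thin filaments and desmin and is mutated in a human limb-girdle muscular dystrophy, had 1420.3, 1293, 1313, 1401 and 1339 reads in the GFP libraries, and 1146, 1258, 1262, 1304 and 1269 in the Arrdc2 libraries. Arrdc2 libraries 6, 7, 9 and 11 lay below every GFP library and library 10 lay just inside the GFP range. Its fold was 0.922 (95% interval 0.863 to 0.984), with limma adjusted p = 0.0547, which passed the threshold in 6 of 20 alternative settings, including without GFP library 4 (0.0475) and without Arrdc2 library 10 (0.0353). Cblb, which in mouse muscle turns over the insulin receptor substrate IRS-1 under unloading, lay between 827 and 947 reads in GFP and between 699 and 897 in Arrdc2. The groups overlapped widely and the fold was 0.954 (95% interval 0.870 to 1.05, limma adjusted p = 0.474).

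Complete separation of the groups was seen for Trim63, Fbxo30 and Mul1, all lower with Arrdc2, and for none of the ligases in the upward direction. Over all tested genes, 11.0% were separated downwards and 8.70% upwards (19.7% in all). The range of folds over the 10 ligases ran from 0.867 for Mul1 to 1.16 for Fbxo32, and the 95% interval excluded 1 for Fbxo32, Fbxo30, Fbxo21, Trim63, Trim54, Trim32 and Mul1. These intervals come from the recovered reads of each gene and are not adjusted for the number of genes, unlike the calls.

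**Figure D2:**
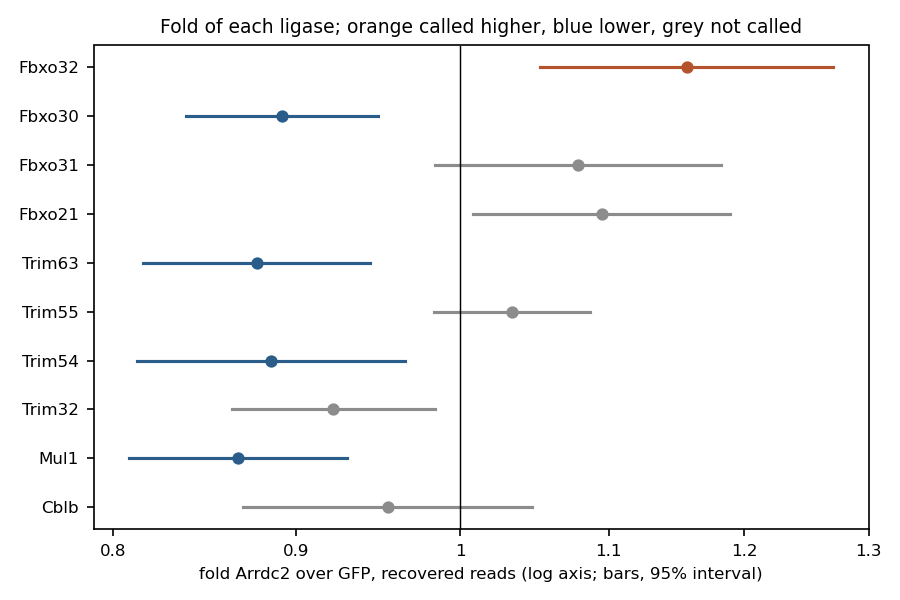
Fold of each ligase, Arrdc2 over GFP (log axis), from limma voom on recovered reads of 5 libraries per group; points are estimates, bars 95% intervals, and colours give the call on the deposited values. Fbxo32 lies at 1.16 and Mul1, Trim63, Trim54 and Fbxo30 between 0.867 and 0.892.

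The levels of the ligases can be compared per kilobase of transcript, taking the transcript length from GENCODE vM21, which is an annotation of another build than the files' GRCm39. In GFP libraries Trim54 was the highest, at 1634 ± 149 normalised reads per kb, followed by Trim55 at 1096 ± 20.2 and Trim63 at 808 ± 28.5 (SD, n = 5). The MuRF genes were thus the 3 highest ligases. Mul1 at 465 ± 19.3 and Trim32 at 424 ± 17.3 reads per kb were close, but their 5 values each did not overlap. Fbxo30 stood at 318 ± 14.4 and Fbxo32 at 213 ± 14.5 reads per kb, 246.6 ± 25.8 for the latter with Arrdc2. Cblb at 129.9 ± 7.64, Fbxo31 at 129.7 ± 9.88 and Fbxo21 at 122 ± 8.52 reads per kb did not differ beyond their spread. The order of the other 9 ligases was unchanged by Arrdc2, except that Cblb, at 124 ± 11.8 reads per kb, moved below Fbxo21 and Fbxo31, again within the spread.

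Fbxo32 and Trim63 are commonly read as a pair, so the difference between them was taken within each library. Recovered reads of Fbxo32 were 0.996, 0.941, 0.926, 1.00 and 0.995 times those of Trim63 in GFP libraries 3 to 7. In Arrdc2 libraries 6, 7, 9, 10 and 11 the ratio was 1.33, 1.40, 1.32, 1.12 and 1.26. The GFP libraries were close to one another, and every Arrdc2 library, including 9 and 10 in which Fbxo32 alone was inside the GFP range, lay above all of them. The mean ratio was 0.972 ± 0.0356 in GFP and 1.29 ± 0.108 in Arrdc2 (SD, n = 5 each). On the deposited log2 scale Fbxo32 minus Trim63 was 0.02 ± 0.04 in GFP and 0.30 ± 0.09 in Arrdc2, a difference of 0.29 (exact 2-sided permutation p = 0.00794, the smallest that 252 assignments can give). A change within the pair shows that the genes moved unequally, and the ratio uses reads per gene without regard to length.

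**Figure D3:**
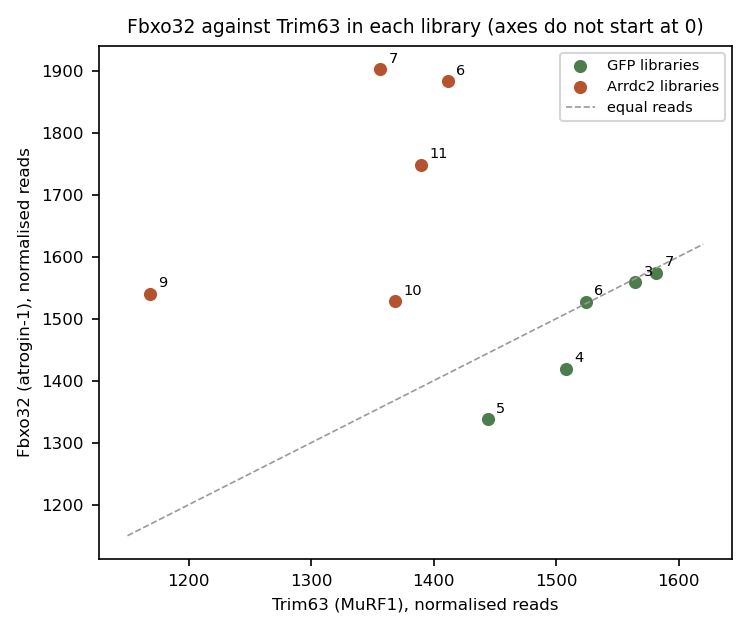
Normalised reads of Trim63 (horizontal) and Fbxo32 (vertical) in each of the 10 libraries, numbered as in the deposited columns; axes do not start at 0, and the dashed line marks equal reads. The 5 GFP points lie on or just below the line and the 5 Arrdc2 points lie above it.

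The SCF complex supplies the machinery on which F-box ligases depend, and NEDD8 attached to its cullin switches it on. Of 13 tested genes of this core, Cand2 rose and Dcun1d1, Skp1a and Senp8 fell, with a median log2 difference of -0.06; the share called was near the 30.3% of all tested genes. Cand2, a muscle-rich exchange factor that strips F-box subunits from the cullin, rose 1.16-fold (95% interval 1.05 to 1.27, limma adjusted p = 0.0184). Dcun1d1, which helps attach NEDD8 to cullins, fell to 0.871 of its GFP level (limma adjusted p = 0.00475). The calls for Skp1a, the adaptor that holds the F-box (0.918 of GFP), and Senp8, the protease that matures NEDD8 (0.882 of GFP), were lost in 10 and 12 of 20 alternative settings, and that for Cand2 was lost in 3: without GFP library 4, without GFP library 7 and with no filter on low values.

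Supply and transfer of ubiquitin come before any ligase acts. Of 20 tested ubiquitin, E1 and E2 genes 4 fell and 0 rose, with a median log2 difference of -0.02. The share called lower was near the 15.8% of all tested genes, of which 14.5% were called higher. The polyubiquitin gene Ubb had 6801, 6383, 6123, 6464 and 6674 normalised reads in the GFP libraries, against 5093, 5102, 5093, 5570.2 and 5785 in the Arrdc2 libraries. Each Arrdc2 library was below each GFP library, and Ubb fell to 0.821 of its GFP level (95% interval 0.771 to 0.874, limma adjusted p = 7.31e-05). The ribosomal fusion gene Rps27a fell to 0.816 (0.759 to 0.876) of the GFP level, also with no overlap. Ubiquitin coding sequences are near-identical between genes, and how reads that match several genes were counted is not given, so these values are uncertain to that extent. Among conjugating enzymes, Ube2d3, which serves many RING ligases, fell to 0.855 of its GFP level with no overlap (limma adjusted p = 4.38e-04). Its relative Ube2d2a fell to 0.894 of its GFP level (limma adjusted p = 0.0397), with overlapping groups, and that call was lost in 10 of 20 alternative settings.

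Of 27 tested transcriptional regulators of these ligases 2 rose and 9 fell, with a median log2 difference of -0.04, and 17 of the 27 differences were below 0. The groups were separated downwards for 6 regulators and upwards for 0. Of all 15223 tested genes, 14.5% were called higher and 15.8% lower, and 7320 had a difference below 0. Separation was downwards for 11.0% of all tested genes and upwards for 8.7%. Among the FOXO factors, Foxo4 rose 1.13-fold (95% interval 1.06 to 1.21, limma adjusted p = 0.00573), whereas Foxo3 was at 1334 ± 67.2 reads in GFP and 1359 ± 132 in Arrdc2 (limma adjusted p = 0.798). Foxo1 fell to 0.890 of its GFP level (limma adjusted p = 0.0408), a call lost in 10 of 20 alternative settings. Hdac5, a class IIa deacetylase that acts upstream of myogenin after denervation in mice, rose 1.15-fold (limma adjusted p = 0.0120).

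Atf4, the factor of the integrated stress response, fell to 0.716 of its GFP level (95% interval 0.668 to 0.767, limma adjusted p = 7.50e-07). The RNA-binding protein gene Zfp36l2 fell to 0.762, Nfkb2 of the NF-kappaB pathway to 0.816 and Cebpb to 0.742 of the GFP level. The glucocorticoid receptor gene Nr3c1 (2099 ± 91.7 reads in GFP, 2028 ± 123 in Arrdc2, limma adjusted p = 0.437) and Klf15, a glucocorticoid-induced regulator with few reads (21.8 ± 7.17 and 14.8 ± 6.90), did not pass. Myog, which drives Fbxo32 and Trim63 after denervation in mice, was at 7429 ± 708 and 6567 ± 936 reads (limma adjusted p = 0.0748) and passed in 3 of 20 alternative settings.

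**Figure D4:**
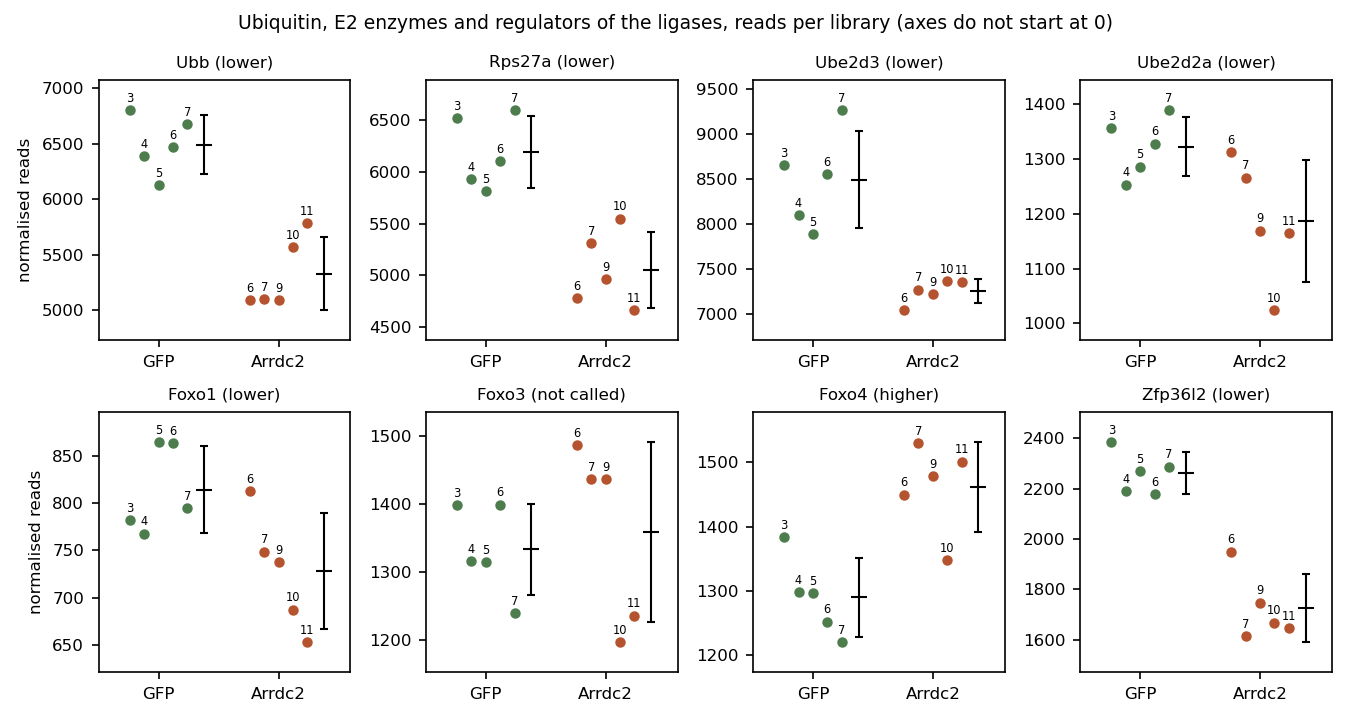
Normalised reads (vertical axes, which do not start at 0) in each library for Ubb, Rps27a, the conjugating enzyme genes Ube2d3 and Ube2d2a, the FOXO genes Foxo1, Foxo3 and Foxo4, and Zfp36l2; points carry library numbers and bars give mean and SD of 5 libraries. Ubb, Rps27a, Ube2d3 and Zfp36l2 show no overlap between groups, and the other 4 genes overlap.

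Other genes known as FOXO targets moved both ways: 7 of 28 tested rose and 5 fell, with a median log2 difference of 0.02. Among all tested genes 14.5% were called higher and 15.8% lower. Bnip3, a mitophagy receptor, rose 1.47-fold (95% interval 1.37 to 1.59), Sesn3 1.26-fold, the atypical cyclin Ccng2 1.26-fold and the cell cycle inhibitor Cdkn1b 1.18-fold. Gadd45a, a mediator of denervation atrophy in mice, fell to 0.705 of its GFP level (95% interval 0.662 to 0.751), the insulin receptor substrate Irs2 to 0.679, Txnip to 0.819 and the translation repressor gene Eif4ebp1 to 0.864. Fbxo32, Trim63 and the remaining ligases were kept out of these lists.

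The transcripts of proteins that these ligases mark, or are linked to as partners, were counted next. The lists are called substrates, though not every member, such as Sqstm1, is an established one. Of 28 tested atrogin-1 and MuRF substrates 0 rose and 10 fell, with a median log2 difference of -0.09; over all tested genes 15.8% were called lower and 30.3% in either direction. Several of them, such as Acta1, Ttn and Ckm, are also markers of differentiated muscle, whose sums were 278610 to 303233 normalised reads in GFP libraries and 256084 to 278828 in Arrdc2 libraries; the part of this in the counts was not tested. Sqstm1, the autophagy receptor p62, fell to 0.683 (95% interval 0.651 to 0.718), filamin C (Flnc) to 0.709, Fhl2 to 0.773 and the regulatory light chain Myl2 to 0.651 of the GFP level. The atrogin-1 substrate Eif3f fell to 0.872 of its GFP level (limma adjusted p = 0.00563), whereas Myod1 was at 2009 ± 235 and 2122 ± 115 reads (limma adjusted p = 0.336). Desmin (Des), a Trim32 and MuRF1 substrate, fell to 0.908 of its GFP level (limma adjusted p = 0.0177), a call lost under quantile normalisation and without Arrdc2 library 9.

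The substrates of Mul1, Cblb, Fbxo31 and the rest numbered 18 tested genes, of which 1 rose and 2 fell, with a median of 0.02. Calls among all tested genes were 14.5% higher and 15.8% lower. The spindle motor gene Kif11 rose 1.22-fold (limma adjusted p = 0.00819) and Mdm2, the p53 ligase, fell to 0.776 of its GFP level (95% interval 0.731 to 0.824). Dnm1l, the mitochondrial fission GTPase, fell to 0.932, a call lost in 8 of 20 alternative settings. Mfn2, the Mul1 substrate, was at 4786 ± 194 and 4876 ± 455 reads (limma adjusted p = 0.781), and the Cblb substrate gene Irs1 was at 3118 ± 155 and 3278 ± 199 reads (limma adjusted p = 0.266). Cyclin D1 (Ccnd1), the Fbxo31 substrate, was at 4622 ± 415 and 4422 ± 455 reads (limma adjusted p = 0.485).

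**Figure D5:**
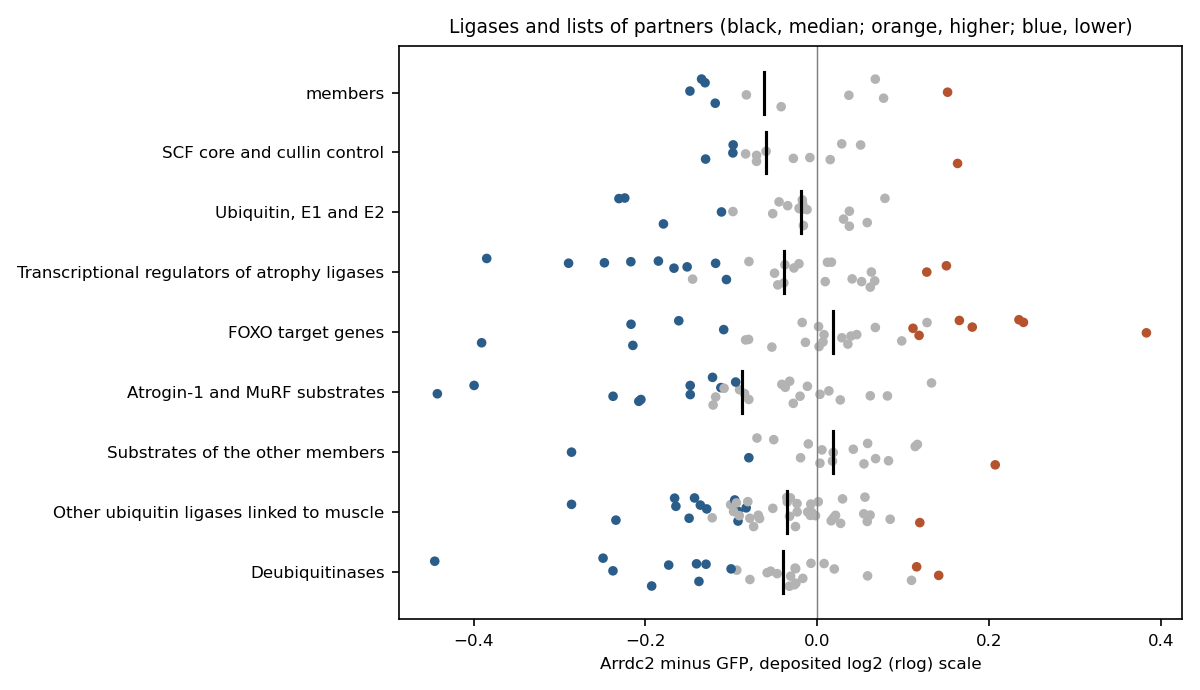
Difference between the groups (Arrdc2 minus GFP, deposited log2 scale) of each tested gene among the 10 ligases ("members") and 8 lists of partners, regulators and substrates; black bars are medians, orange points were called higher, blue lower and grey not called. The median lies at -0.06 for the ligases, and the atrogin-1 and MuRF substrates have the lowest median, -0.09.

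Among 47 other tested ubiquitin ligases linked to muscle, 1 rose and 12 fell, with a median log2 difference of -0.04. Fbxo25, the closest F-box relative of Fbxo32, rose 1.13-fold with no overlap (95% interval 1.06 to 1.21, limma adjusted p = 0.00364). Asb5, a SOCS-box ligase of muscle, fell to 0.814, the SCF subunit Fbxw7 to 0.849 and the N-end rule ligase Ubr2 to 0.863 of the GFP level. Of 28 deubiquitinases, which take ubiquitin off again, 2 rose and 9 fell, with a median of -0.04. Beside both lists, 14.5% of all tested genes were called higher and 15.8% lower. Usp36 fell to 0.645 (95% interval 0.601 to 0.692), Otud1 to 0.780, Otud4 to 0.808 and the proteasome subunit Psmd14 to 0.841 of the GFP level, while Usp25 and Stambp rose 1.15-fold each; the Stambp call was lost in 5 of 20 alternative settings.

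For each ligase that was called, the genes with the nearest profile over the 10 libraries were found by the root mean square difference of mean-centred log2 values. The nearest to Fbxo32 were Tmem64, Acsl1 and Gas6, at differences of 0.0327 to 0.0350 against a range of 0.37 for Fbxo32 itself. Metap1, Usp39 and Prnp were nearest to Trim63 (0.0282 to 0.0316 against a range of 0.31), and Flvcr1, Sos2 and Ranbp2 to Fbxo30 (0.0247 to 0.0253 against 0.21). Rnf216, Tmem8b and Jph1 were nearest to Trim54 (0.0353 to 0.0417 against 0.36), and Ino80, Trim35 and Lemd2 to Mul1 (0.0285 to 0.0336 against 0.29). The root mean square difference and the range are unlike measures, so the values rank neighbours and do not measure closeness. Rnf216 and Trim35 are themselves ubiquitin ligases, but the share of ligases among all tested genes was not computed and no link was tested.

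Beside these results stand several facts of the libraries as a whole. Recovered reads counted to genes summed to 18.93 to 26.03 M per library in GFP and 23.50 to 28.65 M in Arrdc2. The group means were 22.4 ± 2.62 M and 25.6 ± 2.09 M (SD, n = 5 each). Reads counted to mouse Arrdc2 were 103 ± 14.5 in GFP and 132 ± 15.6 in Arrdc2, a 1.29-fold difference (95% interval 1.09 to 1.51, limma adjusted p = 0.0178) with Arrdc2 libraries 7 and 10 inside the GFP range; whether reads of the delivered sequence were counted to the mouse gene was not tested, so this value may not measure the delivered transcript. All 12 markers of differentiated muscle were detected in every group, with 278610 to 303233 summed normalised reads in GFP libraries and 256084 to 278828 in Arrdc2 libraries; 4 of 12 fell (Myh8, Acta1, Mb and Casq2) and 0 rose, with the calls of Mb and Casq2 lost in 15 and 7 of 20 alternative settings. Of 10 undifferentiated myoblast and cycling markers, 6 rose and 0 fell, with sums of 14970 to 17217 and 16933 to 21680 reads. Of 10 fibroblast and adipocyte markers 5 could be tested; Dcn, Col3a1 and Lpl rose (the Lpl call was lost in 8 of 20 alternative settings), sums were 51172 to 60367 and 60404 to 67311, and Lum, Thy1, Adipoq, Plin1 and Fabp4 had group means of 0 to 4.14 reads. For comparison with these marker counts, 14.5% of all tested genes were called higher and 15.8% lower (30.3% in either direction). The part of the marker shifts in the ligase results was not tested. In bulk RNA, fewer cells of a type and less of a transcript per cell cannot be told apart.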

How the data were processed

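Polyadenylated RNA of 10 C2C12 samples (5 GFP, 5 Arrdc2) was sequenced from directional libraries with paired-end reads, per the labels' protocols. The authors deposited log2-scale regularized log values per gene. Per the submitters' processing notes, the authors used STAR 2.7.10a, DESeq2 1.30.1 and GRCm39. Which tool counted the reads, with which annotation release and strand setting, was not given in the sources used here. The columns' library numbers do not match the labels' replicate numbers, so each column served as an unpaired replicate of its group, named here by its column number; 0 columns were left unused. Symbols came from a GENCODE vM21 gene table (52029 of 57010 identifiers matched).

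Genes with a mean value of at least 3 (15223) went into a limma 3.58.1 model under R 4.3.3 (group as the only term, empirical Bayes with trend), with Benjamini-Hochberg adjustment over all of them and a threshold of 0.05. The within-library difference of Fbxo32 and Trim63 was tested by exact 2-sided permutation in Python 3.11.15. Whole reads were recovered by solving the penalised negative binomial equation behind each value: of the values of 16053 held-out genes with reads, 99.4% came within 0.1 of a whole number (20% by chance; 89.5% above 10000 mean reads). Folds, their 95% intervals and normalised reads use these reads (limma voom with the recovered size factors, chosen after seeing the data). They are not adjusted for multiple testing and cover only the spread between libraries. Tested on simulated data (15223 genes, 200 of them changed), the limma fit recovered 36%, 80%, 100% and 100% of changes of 0.1, 0.2, 0.4 and 0.8 on the log2 scale, with 6 false calls. The simulation drew noise independently for each gene, with no variation shared within a library. In the data 30.3% of genes were called, a far larger share than was changed in the simulation. The adjusted threshold therefore differs, and these rates do not carry over to the data.

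The ligases and the 11 lists of partners and markers were chosen with earlier results of these data known. The text names all 10 ligases, up to 4 called genes per direction from each list with the largest differences, 12 regulators and substrates fixed by name, and the 3 nearest profiles of each called ligase; every tested gene of a list was counted, except 2 listed genes that are not reported here. Alternatives were other normalisations, filters, variance models, library weights, voom on recovered reads and leaving out each library.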

Additional observations from a re-analysis of the deposited data

Results flagged for a closer look

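Among 72 genes and differences, each group of 5 libraries was screened for a library that stood apart from the other 4 by more than Dixon's 95% limit (a gap above 0.71 of the group's range). Of 144 groups 9 were singled out; chance gives about 1 in 20 groups. For the ligases, the deposited log2 value of Trim63 in Arrdc2 library 9 was 10.28, with the nearest at 10.43. Fbxo30 in GFP library 5 was 10.54, with the nearest at 10.64. Trim32 in Arrdc2 library 6 was 10.22, with the nearest at 10.31. The calls of Trim63 and Fbxo30 held without these libraries.

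Among partner and marker genes, GFP library 5 was low for Cdkn1b (11.03, nearest 11.14), GFP library 3 for Myh8 (12.74, nearest 12.82), Arrdc2 library 9 for Dnm1l (12.13, nearest 12.20) and Arrdc2 library 6 for Psmd14 (11.62, nearest 11.69). High values were those of Lpl in Arrdc2 library 6 (9.82, nearest 9.73) and of Usp36 in GFP library 6 (10.68, nearest 10.55).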

How the results depend on the processing

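No paired analysis was possible because the columns carry library numbers that do not match the labels' replicate numbers, so the planned replicate block was not run. Over all genes, 3697 to 4931 were called in the 20 alternative settings, against 4616. The number of ligases called lower stayed between 3 and 5, against 4. The number called higher was 1, except 0 with no filter on low values and 2 when voom scaled recovered reads by their total; leaving out 1 library gave 0 (without Arrdc2 library 7) to 1. Without GFP library 5 the ligase called higher was Fbxo21 and not Fbxo32. With no filter, more genes were tested, and the limma adjusted p of Fbxo32 was 0.0632 and that of Trim54 0.0960. Trim54 was also lost under quantile normalisation (0.0715), without the variance trend (0.0578) and with voom on total reads (0.0799); the cause was not tested. Trim32 passed with each library centred on its median (0.0296), a minimum mean of 5 (0.0484), no trend (0.0428) and library weights (0.0409), and Fbxo21 with voom on total reads (0.0273). Trim63, Fbxo30 and Mul1 were called lower, and Fbxo31, Trim55 and Cblb not called, in all 20. Fbxo32 minus Trim63, computed in 15 of these settings, ranged from 0.26 to 0.40. A difference within a library cancels that library's scaling, so centring on the median could not change it. The voom settings all used the same ratio of recovered reads, which gave the 0.40 because reads are not shrunk. The exact permutation p of 0.00794 to 0.0159 is at or near the smallest that so few libraries allow and says nothing of stability. Of 200 values of the ligases 181 kept their direction and side of the threshold, 11 lost a call and 8 gained one; of 1219 values of 61 other named genes, 92 lost and 5 gained one. No called gene turned direction. Scaling moved the median of all genes by at most 0.05 on the log2 scale.

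The log2 differences of Fbxo31, Fbxo21, Trim32, Trim55 and Cblb were all below 0.1 in size, with SE of 0.03 to 0.04. With 5 libraries a group, changes of that size can be missed. Only Fbxo21 (0.077) and Trim32 (-0.082) passed in any alternative setting, and Fbxo31, Trim55 and Cblb passed in none. Reads above a mean of 10000 are less exact. No setting used reads as the authors counted them, and p-values measure the spread between libraries whose origin in separate cultures is not stated.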
